A study of Mus musculus with 13 samples.

Results

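The combined effect of Setdb1 knockdown and inhibition of DNA methylation was measured by RNA-seq in female mouse embryonic fibroblasts (MEFs), as the difference between cells given both perturbations and cells given neither. It was described with 6 of the 13 libraries. The 3 libraries with both carried a hairpin against Setdb1 and were treated with 5-azacytidine (5-aza). In replicates A and B the hairpin was shSetdb1.4, and in replicate 1 it was shSetdb1.6. The 3 control libraries received no drug. Their replicates A and B carried a non-silencing hairpin, and replicate 1 carried a hairpin against luciferase. All were primary cells of E13.5 embryos with a mutant XistΔA allele on one X and a PGK strain X on the other. Retroviral transduction was followed by puromycin selection, exposure to 5-aza lasted 24 h and began on day 3, and RNA was collected on day 7. Per the study, Setdb1 hairpins were given to cells with 1 gene-trap allele of Setdb1 and the non-silencing hairpin to wild-type cells, and the genotype of the luciferase cells is not given. Hairpin, allele and drug therefore cannot be told apart within this comparison. Below, the hairpin alone stands for Setdb1 hairpin cells without the drug, and this includes the gene-trap allele. The labels do not say whether replicates were separate cultures or embryos, so the p-values measure the spread between these libraries, which may be technical.

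Setdb1 places methyl groups on lysine 9 of histone H3 (H3K9), a mark of silent chromatin, and acts with partners that guide or stabilise it. DNA methylation is a second silencing layer, copied at each cell division by Dnmt1, and 5-aza traps that enzyme once the drug has entered DNA. Germline genes, imprinted genes, retroelements and genes of the inactive X are known targets of one layer or both. Fibroblasts make collagens and other matrix proteins, carry a Notch pathway that reads ligands on neighbouring cells, and can mount an interferon response. The study asked whether losing both layers releases genes on the inactive X.

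Between 36.4 M and 51.3 M reads fell in genes in each of the 12 libraries with a hairpin. Levels are in RPM, reads scaled to a library of 1000000, and 1 read was worth 0.017 to 0.0239 RPM. Of 25965 gene intervals, 13134 reached 1 RPM in at least 3 hairpin libraries and were tested with limma over all 12 hairpin libraries. Genes with a Benjamini-Hochberg adjusted p under 0.05 were called. Among the 6 libraries the lowest Spearman correlation across genes was 0.985. All 14 fibroblast markers listed were tested, with a summed level of 27752.9 to 33534.7 RPM in control and 24585.8 to 31444.5 RPM in treated libraries. Without treated replicate A the number of genes called was 5161 instead of 4882, and without treated replicate B or control replicate B it was 3387 or 3349.

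The hairpin guide strands are shown first, with the seed (bases 2 to 8) in capitals.

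shSetdb1.4: tTTGTCTGcaaagtcatctgtc

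shSetdb1.6: tAGATCTTgagaactgcttttc

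Of these guides, 21 bases each match Setdb1 transcripts, in the coding sequence at chr3:95327805-95327825 (exon 16) and chr3:95348003-95348023 (exon 5) of the minus strand (GRCm38). Neither site was found in an annotated transcript of another gene. Setdb1 (ENSMUSG00000015697) was at 46.15, 46.26 and 46.35 RPM in the controls. It was at 14.54 and 13.72 RPM with shSetdb1.4 and 5-aza, and at 10.45 RPM with shSetdb1.6 and 5-aza. The groups were far apart, and 27.9% of the control mean remained (log2 fold change -1.86, SE 0.11, limma adjusted p 3.88e-07). The parts of hairpin and gene-trap allele in this fall cannot be told apart.

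Both perturbations together changed the level of many genes, mostly by little and mostly upwards. Of the genes tested, 4882 were called (37.2%), 3849 higher (29.3%) and 1033 lower (7.87%). The 3 treated and 3 control libraries did not overlap for 51.4% of all genes tested. Called genes had a median absolute log2 change of 0.31, and 430 of them changed at least 2-fold, 315 higher and 115 lower. At least 4-fold, 58 were higher and 10 lower. Rises were frequent among genes that were nearly silent. Of 393 genes with a control mean under 1 RPM, 216 were called higher and 1 lower, although such a gene passed the filter only where other hairpin libraries held it at 1 RPM. Of 337 annotated pseudogenes, 72 were called higher and 20 lower.

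**Figure D1:**
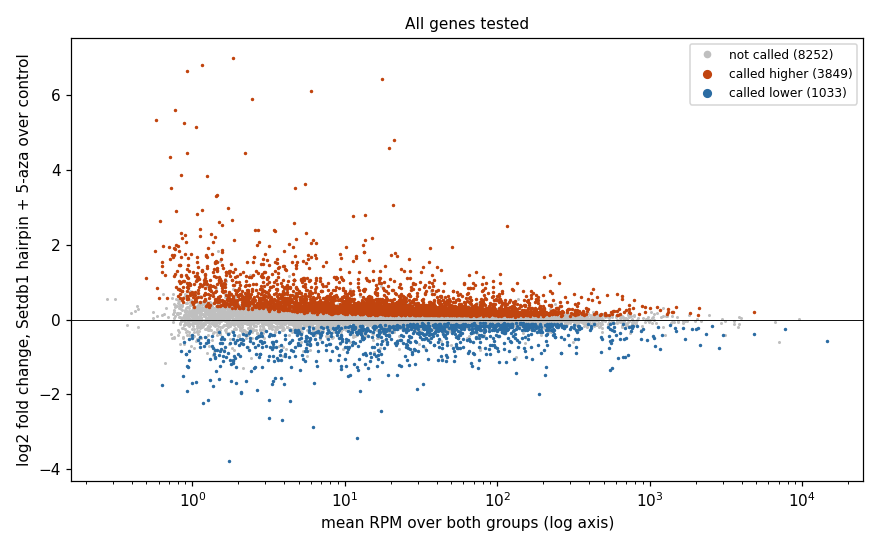
Log2 fold change of Setdb1 hairpin + 5-aza over control hairpin against mean RPM for the 13134 genes tested (n = 3 libraries a group), with called genes in colour. The 3849 higher genes reach further from 0 than the 1033 lower ones, and the largest rises sit at low mean RPM.

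The excess of higher calls depended on the scaling. As deposited, 78.8% of the called genes were higher, and over all genes tested the median log2 change was 0.094. Centring each library on its median gave 45.1% higher, quantile normalisation 51.7% and GC correction 49.1%, and centring moved the median by -0.106. Small changes are therefore read against the median of all genes. Genes called lower numbered 2320, 1883 and 2136 after these scalings, against 1033 as deposited. Lower counts of a list after scaling therefore have a larger background. Genes called higher numbered 1905, 2014 and 2062, against 3849 as deposited, so higher counts have a smaller one.

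Many of the germline genes tested were higher. These genes act in the making of eggs and sperm and are silent in most body cells. Of 70 listed germline genes in the table, 15 passed the filter, and 12 of these were called higher (29.3% of all genes) and 0 lower, with a median log2 fold change of 1.35 against 0.09 over all genes tested. The other 55 did not reach the filter and stayed at or below 1.75 RPM in each of the 6 libraries. A member that passed the filter only because treated libraries reached 1 RPM had to be higher, so these counts are a description. Without the filter, 58 could be fitted, and 30 were called higher and 0 lower by limma, against 21.6% higher of all 19319 genes in that fit.

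Dazl (ENSMUSG00000010592, chr17:50279394-50293599), which encodes an RNA-binding protein of germ cells, was nearly unread without treatment. It was at 0.0177, 0.0216 and 0.0638 RPM in the controls, at most 3 reads a library, and at 4.16, 3.46 and 3.43 RPM in the treated libraries. That is at least 60.9-fold higher, computed against a floor of 3 reads per control library. Tex19.1 (ENSMUSG00000039329, chr11:121146143-121148319), a germ cell gene linked to retroelement control, had 0 reads in each control library and 1.56, 1.69 and 2.26 RPM in the treated ones, at least 30.4-fold higher. The groups were fully apart for both genes (limma adjusted p 1.99e-06 for Dazl and 2.24e-08 for Tex19.1).

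RefSeq promoters were found for 5 of the germline genes called at least 2-fold higher. Those of Dazl and Tex19.1, which had at most 3 reads in any control library, and of Xlr3a, the poorest of the 5 in CG, are printed to show their range, and CG, the site of DNA methylation, is in capitals. Each runs from 250 bases before to 50 after the RefSeq start (GRCm38).

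Dazl promoter, chr17:50293571-50293870, minus strand: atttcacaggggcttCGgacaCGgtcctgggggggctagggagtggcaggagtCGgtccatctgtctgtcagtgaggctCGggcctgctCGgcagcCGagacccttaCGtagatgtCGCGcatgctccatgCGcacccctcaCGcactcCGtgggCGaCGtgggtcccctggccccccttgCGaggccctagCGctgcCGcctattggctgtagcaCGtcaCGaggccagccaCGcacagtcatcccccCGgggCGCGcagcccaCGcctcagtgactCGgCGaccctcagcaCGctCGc

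Tex19.1 promoter, chr11:121145893-121146192, plus strand: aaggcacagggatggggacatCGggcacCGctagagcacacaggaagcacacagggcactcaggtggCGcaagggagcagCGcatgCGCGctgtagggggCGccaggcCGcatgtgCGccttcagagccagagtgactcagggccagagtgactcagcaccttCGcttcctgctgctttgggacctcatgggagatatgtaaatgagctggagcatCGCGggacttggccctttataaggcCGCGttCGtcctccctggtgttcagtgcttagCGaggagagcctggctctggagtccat

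Xlr3a promoter, chrX:73097046-73097345, minus strand: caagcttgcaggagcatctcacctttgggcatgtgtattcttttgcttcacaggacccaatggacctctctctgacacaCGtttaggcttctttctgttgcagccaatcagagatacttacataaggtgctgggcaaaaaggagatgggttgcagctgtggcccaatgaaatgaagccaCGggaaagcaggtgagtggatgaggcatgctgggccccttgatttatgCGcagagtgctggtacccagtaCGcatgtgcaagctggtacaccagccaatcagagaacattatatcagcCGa

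They hold 28, 16 and 5 CG, and those of Syce2 and Tdrd9 hold 19 and 10. The letters CG read the same on both strands. Of 32851 RefSeq mouse promoters of this length, 94.6% held at least 1 CG, and the median was 7 with quartiles of 3 and 20. As many as or fewer than the Dazl promoter were held by 87.1% of them, for Tex19.1 by 68.6% and for Xlr3a by 43.6%. Promoters were found by symbol for 68.3% of the genes tested, too few for a comparison of CG content between called and other genes, and methylation itself was not measured in these libraries.

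The single treatments raised these genes in different ways. Dazl was at 1.72 ± 0.255 RPM (SD, n = 3) with 5-aza alone and at 0.0409 ± 0.0368 RPM with the Setdb1 hairpin alone. Its mean with both was 3.686 RPM, and the difference from 5-aza alone missed the threshold (log2 fold change 1.11, limma adjusted p 0.147). The spread in that fit also takes in libraries with very few Dazl reads, so equal levels are not shown. Tex19.1 was at 0.319 ± 0.0683 RPM with 5-aza alone and 0.247 ± 0.0515 RPM with the hairpin alone, and at 1.84 ± 0.373 RPM with both, above each single treatment (log2 fold change 2.53, adjusted p 1.24e-04 over 5-aza alone, and 2.90, adjusted p 8.58e-05 over the hairpin alone).

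Tex11 (ENSMUSG00000009670, chrX:100838648-101059667), a meiosis gene, was higher in Setdb1 hairpin cells with and without 5-aza. It was at 0.0707, 0.0216 and 0 RPM in the controls and at 1.32, 1.39 and 1.82 RPM with both treatments (log2 fold change 5.60, SE 0.52, limma adjusted p 1.12e-05). With the hairpin alone it was already at 1.03 ± 0.065 RPM, and adding 5-aza to the hairpin did not change it beyond the threshold (0.54, limma adjusted p 0.447). The spread in that fit also takes in the nearly unread controls, so equal levels are not shown. Rhox5 (ENSMUSG00000095180, chrX:37804851-37808764), a homeobox gene of the reproductive tract, rose 21.5-fold, from 0.247, 0.151 and 0.191 RPM to 4.58, 3.46 and 4.62 RPM. It was above each single treatment (1.20, adjusted p 5.02e-03 over 5-aza alone, and 2.67, adjusted p 5.97e-05 over the hairpin alone). Further rises, chosen for mention after their values were seen, were those of Tdrd9 (log2 fold change 4.44), Rbm44 (4.33) and Tex15 (1.70), while Trip13 was at 0.00 and Tdrkh at -0.01.

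**Figure D2:**
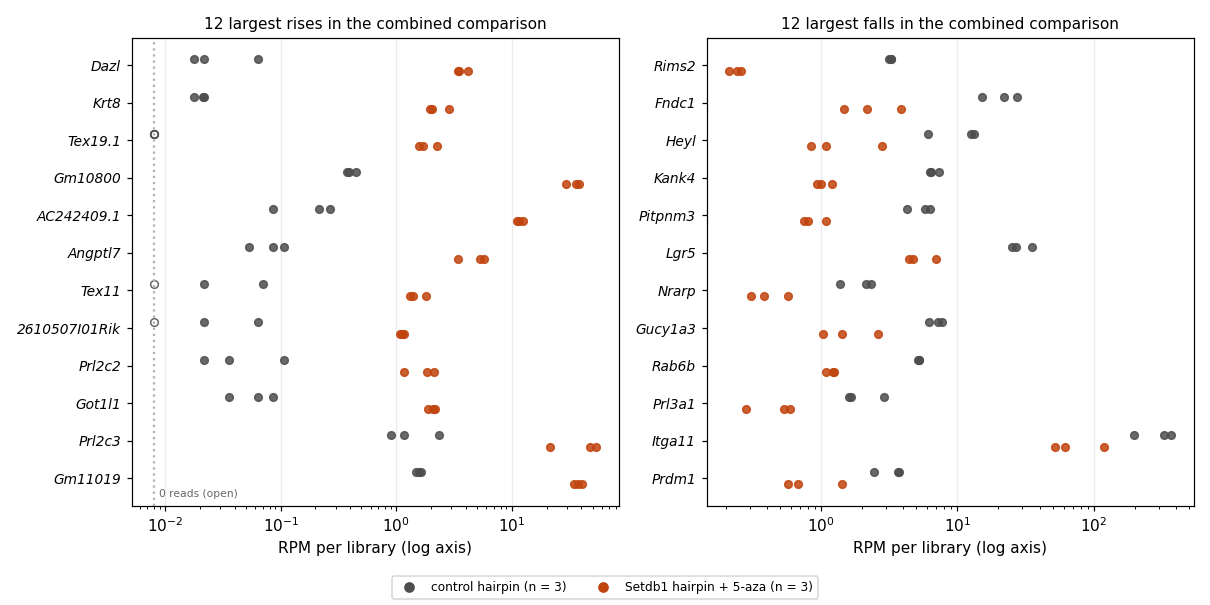
RPM per library (log axis) of the 12 largest rises and 12 largest falls among called genes whose groups did not overlap, with 3 control and 3 treated libraries each and open points for 0 reads. The selection fixed that groups are apart, and the rises span more orders of magnitude than the falls.

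The 12 largest rises held genes of several other kinds. Krt8 (ENSMUSG00000049382, chr15:101996711-102004342), a keratin of simple epithelia, had at most 1 read in a control library and reached 2.88, 2.05 and 1.96 RPM, at least 37.9-fold higher. Its partner Krt18 was at 3.11, 2.93 and 2.57 RPM in the controls and at 20.5, 19.7 and 18.6 RPM with both treatments, 6.83-fold higher. All 4 epithelial markers tested were called higher, the others being Krt19 (log2 fold change 0.86) and Krt7 (0.78), against a background of 29.3%. Krt8 passed the filter only through libraries where it was high, so this count is a description. With the filter at 5 RPM, 3 members were called higher. Without the filter, all 13 could be fitted, and 7 were called higher and 0 lower, against 21.6% higher of all genes in that fit. The 9 untested members did not exceed 0.8 RPM in the 6 libraries, and some defining ones stayed near 0. Epcam had at most 4 reads and Cdh1 at most 4 in any of the 6 libraries, and Esrp1 had 0, which allows up to 3 reads a library. The sum of the 13 listed epithelial markers went from 30.29 to 34.04 RPM in controls to 70.2 to 83.17 RPM in treated libraries.

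A pair of gene models without an assigned function rose with 5-aza. Gm10800 (ENSMUSG00000075014, chr2:98666547-98667301) was at 0.371, 0.388 and 0.446 RPM in the controls and at 37.9, 35.7 and 29.6 RPM with both treatments, 85.6-fold higher. AC242409.1 (ENSMUSG00000095280, chr14:19415857-19418930) went from 0.265, 0.0863 and 0.213 RPM to 11.6, 12.6 and 11.1 RPM, 62.5-fold higher. With 5-aza alone they were at 26.9 ± 5.18 and 9.61 ± 1.93 RPM, and neither differed beyond the threshold between both treatments and 5-aza alone (limma adjusted p 0.12 and 0.527). Of their transcripts' 50-base words, 30% and 40.2% also occur in transcripts of other genes, so the reads may come from more than the named interval.

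Prl2c2 and Prl2c3 encode proliferins, prolactin-like hormones of the placenta. Prl2c3 was at 1.17, 0.906 and 2.36 RPM in the controls and at 21.3, 54.1 and 47.1 RPM in the treated libraries (log2 fold change 4.80, SE 0.59, limma adjusted p 9.51e-05). Prl2c2 rose to 1.16, 2.11 and 1.86 RPM (5.26, SE 0.65, adjusted p 9.5e-05). Their sequences share 78.6% and 89.5% of words with other transcripts, so these counts cannot be assigned to 1 gene with certainty. Both lay above each single treatment.

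Angptl7, a secreted angiopoietin-like protein, rose to 3.4, 5.73 and 5.29 RPM from 0.053 to 0.106 RPM (58.7-fold). Gm11019, a noncoding RNA, went from 1.49, 1.58 and 1.64 RPM to 34.8, 37.6 and 40.4 RPM (24-fold, adjusted p 7.47e-09 by limma). It was above each single treatment, since 5-aza alone gave 4.22 ± 1.19 RPM and the hairpin alone 10.4 ± 1.08 RPM. Got1l1 (log2 fold change 5.15) rose in every contrast, and the noncoding 2610507I01Rik (5.33, at least 18.6-fold) was at 0.907 ± 0.13 RPM with the hairpin alone and at 0.0206 ± 0.0216 RPM with 5-aza alone.

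Across the 12 largest rises, 10 were called higher with 5-aza alone against the controls and 7 with the hairpin alone. With both treatments, 9 exceeded 5-aza alone and 10 exceeded the hairpin alone, and 7 exceeded each (Krt8, Tex19.1, Angptl7, Prl2c2, Got1l1, Prl2c3 and Gm11019). These contrasts share libraries with the comparison that chose the genes, so the counts are a description. Shares over all genes tested were not counted for these contrasts. A gene with few reads in some groups has a wide spread in the fit and can miss a call.

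The largest falls included signalling and adhesion genes. Rims2 (ENSMUSG00000037386, chr15:39198332-39681940), a scaffold of vesicle release sites, fell from 3.27, 3.15 and 3.25 RPM to 0.24, 0.259 and 0.211 RPM, which is 7.34% of the control mean (log2 fold change -3.77, SE 0.18, limma adjusted p 5.82e-08). With the hairpin alone it was at 0.255 ± 0.0647 RPM, and adding 5-aza did not move it beyond the threshold (-0.08, adjusted p 0.757). Kank4, Pitpnm3 and Rab6b were also low with the hairpin alone, with log2 fold changes of -2.68, -2.64 and -2.15 for both treatments and of -2.32, -2.13 and -2.12 for the hairpin alone. For each of the 3, adding 5-aza to the hairpin gave a difference that missed the threshold (adjusted p 0.09, 0.123 and 0.868).

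Fndc1, a fibronectin type III domain gene, was at 21.9, 27.3 and 15.1 RPM in the controls and at 3.84, 2.19 and 1.48 RPM with both treatments (log2 fold change -3.17, SE 0.46, limma adjusted p 3.14e-04). Neither treatment alone passed the threshold for it (-1.17, adjusted p 0.123, hairpin, and -1.21, adjusted p 0.0853, 5-aza). Lgr5, a receptor that enhances Wnt signalling, fell from 26.7, 25.2 and 35.5 RPM to 6.96, 4.72 and 4.41 RPM (-2.45, adjusted p 4.89e-06) and was below each single treatment. Itga11, the collagen-binding integrin subunit of fibroblasts, fell from 325, 370 and 198 RPM to 120, 61.4 and 51.9 RPM (-1.99, adjusted p 2.91e-03). Gucy1a3, a subunit of the nitric oxide receptor, fell by 2.17 and the transcriptional repressor gene Prdm1 by 1.97 on the log2 scale. Prl3a1, another prolactin family gene, fell by 2.14 in the same libraries in which Prl2c2 and Prl2c3 rose.

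In the 12 largest falls, 9 were below the level with 5-aza alone and 7 below that with the hairpin alone, and 5 were below each (Fndc1, Heyl, Lgr5, Gucy1a3 and Prdm1). The treated libraries that chose these genes enter both contrasts, so low levels there are favoured. These counts are a description, without a share over all genes.

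Many Notch pathway genes were lower. Of 17 tested, 9 were called lower and 2 higher, against 7.87% lower over all genes, and their median log2 fold change was -0.21 (-0.30 relative to the median of all genes). Jag1, a Notch ligand, was at 188, 203 and 192 RPM in the controls and at 77.1, 73.5 and 66.3 RPM with both treatments (-1.43, SE 0.09, limma adjusted p 7.96e-07), below each single treatment. Among the target genes, Heyl went from 12.7, 13.3 and 6.1 RPM to 2.82, 1.1 and 0.844 RPM (-2.87, adjusted p 1.43e-03) and Nrarp, a feedback inhibitor, from 2.14, 2.31 and 1.38 RPM to 0.38, 0.577 and 0.307 RPM (-2.22, adjusted p 1.73e-04). Hey2 fell from 10.7, 10.1 and 7.74 RPM to 3.36, 2.89 and 2.59 RPM (-1.69, adjusted p 3.12e-05). Nrarp and Hey2 were already lower with 5-aza alone (-1.75 and -1.23, adjusted p 2.21e-03 and 8.47e-04) and not called with the hairpin alone (0.20 and -0.19). Both members called higher were chosen for mention after their values were seen. They were Rbpj (0.46), the DNA-binding partner of the activated receptors, and Notch4 (1.36).

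Part of the matrix genes were lower. Of 53 tested, 23 were called lower (7.87% of all genes), 1 higher and 29 in neither direction, with a median log2 fold change of -0.32, or -0.41 relative to that of all genes. Elastin (Eln) went from 16.5, 16.8 and 13.6 RPM to 9.58, 5.12 and 3.51 RPM (log2 fold change -1.49, SE 0.33, limma adjusted p 4.54e-03). Fbln5, an organiser of elastic fibres, went from 842, 871 and 687 RPM to 395, 305 and 285 RPM (-1.29, adjusted p 3.93e-05), and Fbn2, a fibrillin, from 93.6, 97.5 and 117 RPM to 66.1, 48.9 and 34.7 RPM (-1.08, adjusted p 3.05e-03). Col15a1 was at -1.10 (adjusted p 0.0302), but its groups overlapped and the call was lost without control replicate A or B or treated replicate B or 1. The list held 82512.4 to 91200.2 RPM in control and 62898.2 to 74888.2 RPM in treated libraries, so the groups did not overlap in the sum. The single matrix gene called higher was Timp1 (0.29), named after its value was seen. Among abundant collagens, Col1a1 was at -0.60 (adjusted p 0.061) and Col3a1 at -0.29 (adjusted p 0.457). The number called lower was 16 without treated replicate B, treated replicate 1 or control replicate B.

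The largest losses in RPM were also those of matrix and contractile genes. Thbs1, a matricellular protein and the most abundant of them, went from 16949.7, 17770.3 and 17920.5 RPM to 12141.5, 11713.7 and 11282.5 RPM (log2 fold change -0.58, adjusted p 1.7e-04 by limma), a difference that was 0.00 after quantile normalisation. That scaling gives genes of equal rank the same value, so a gene that keeps its rank shows no change. The collagen cross-linking enzyme Lox fell from 3561, 3671 and 3549 RPM to 2189, 2078 and 2090 RPM (-0.76, adjusted p 1.05e-05). Bgn, a proteoglycan (-0.38), and Col5a1 (-0.68) also fell. Smooth muscle actin (Acta2) was at -0.25 (adjusted p 0.0233) as deposited and at 0.14 after quantile normalisation, and its call was lost without control replicate A or 1 or treated replicate B or 1. Of 18 contractile genes, 5 were called lower and 2 higher, with 9 to 10 lower after centring or GC correction and 2 without treated replicate 1. As deposited, 7.87% of all genes were lower and 29.3% higher. After centring and GC correction, 2320 and 2136 of all 13134 genes were lower. Myocd, the smooth muscle coactivator, fell by 1.08 and Lmod1 by 0.40, while the muscle filament gene Des rose by 0.89 and Ldb3 by 0.53.

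Among the largest gains in RPM, Vim, the fibroblast intermediate filament, went from 4620, 4508 and 4427 RPM to 5140, 5143 and 5248 RPM (log2 fold change 0.20, of which 0.10 lay above the median of all genes), and it was not called after centring on the median or GC correction. Plec (0.33), S100a6 (0.53) and Tagln2 (0.64) followed, with Plec losing its call under the same scalings and without control replicate A or B or treated replicate B. Tagln2 was at 536, 546 and 454 RPM in controls and at 792, 764 and 829 RPM with both treatments.

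Many interferon-response genes were higher. Of 34 tested, 19 were called higher and 0 lower, against 29.3% of all genes called higher, with a median log2 fold change of 0.34. After each scaling alternative 13 to 14 were higher, where 1905 to 2062 of all 13134 genes were. Usp18, which removes the ubiquitin-like Isg15, went from 0.336, 0.475 and 0.234 RPM to 2.04, 1.37 and 0.997 RPM (2.08, SE 0.40, limma adjusted p 2.08e-03). Isg15 itself went from 0.495, 0.841 and 0.404 RPM to 2.7, 1.39 and 1.53 RPM (1.70, SE 0.39, adjusted p 5.56e-03). Ifit3 and Ifit1, sensors of foreign RNA, both rose by 1.48 on the log2 scale. Treated replicate A was the highest library for all 4 genes. None of the 4 was called with the hairpin alone against controls (log2 fold changes of -0.35 to -0.16), and of the 4 Ifit1 was called with 5-aza alone (1.45, adjusted p 0.0164). Of their levels with both treatments, none differed beyond the threshold from 5-aza alone. Of the Ifit3 words, 51.2% occur in other transcripts.

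MHC class I genes, which present peptides to T cells, showed 8 of 18 tested called higher, against 29.3% of all genes, and 0 lower, with 3 lower after centring or GC correction. H2-K1 went from 12.7, 12.9 and 11.9 RPM to 21.6, 19.3 and 19.9 RPM (log2 fold change 0.70, limma adjusted p 1.27e-05), and H2-D1 from 28.1, 27.5 and 30.6 RPM to 43.5, 44.5 and 49.4 RPM (0.67, adjusted p 1.79e-05). The immunoproteasome subunit Psmb8 rose by 1.38 and H2-Q4 by 1.16, while the light chain gene B2m was at -0.19 (adjusted p 0.0623). The summed level of the list was 3667 to 3776 RPM in control and 3558 to 3703 RPM in treated libraries, with the abundant members Calr at -0.04 and Pdia3 at -0.07. Of 16 chemokines and cytokines, 5 were called higher and 3 lower, against 29.3% and 7.87% of all genes. Il34, a ligand of the Csf1 receptor, rose by 1.61 and Cxcl14 fell by 1.29.

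**Figure D3:**
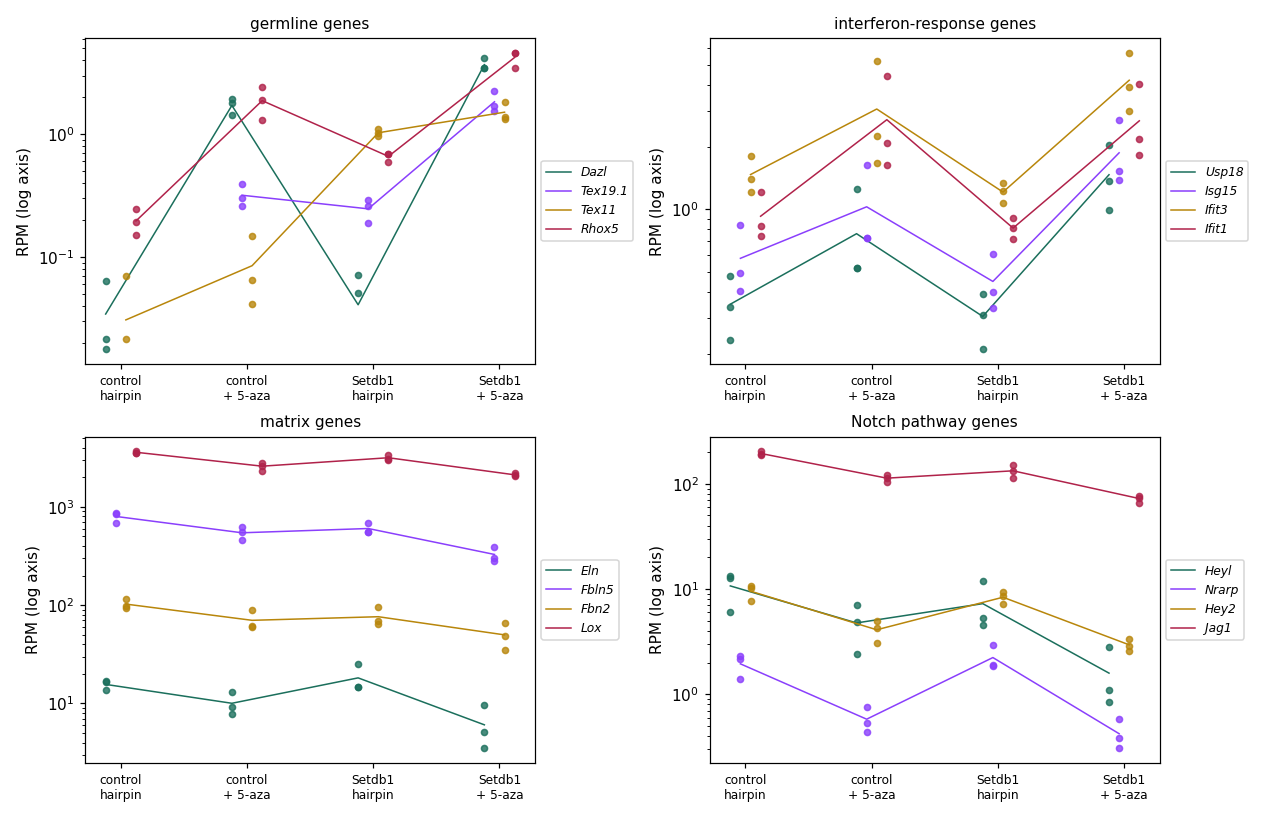
RPM per library (points) and group means (lines, log axis) of 4 genes each from the germline, interferon-response, matrix and Notch lists in the 4 hairpin groups, n = 3 libraries each, with libraries at 0 reads not drawn. Tex11 is near its combined level with the Setdb1 hairpin alone, Dazl is above 1 RPM in both 5-aza groups, and Jag1 is lowest with both.

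Among imprinted genes, which are expressed from 1 parental copy, 6 of 34 were called higher and 5 lower, with a median of -0.02. The share called higher was below the 29.3% of all genes, and the share lower was above 7.87%. The fetal growth factor Igf2 fell from 974, 913 and 841 RPM to 545, 437 and 400.1 RPM (log2 fold change -0.99, limma adjusted p 1.32e-04), and its neighbour H19 from 651, 590 and 595 RPM to 441, 318 and 268 RPM (-0.87, adjusted p 2.11e-03). Mest fell by 1.24 and Gatm rose by 1.46. Of the Igf2 words, 75.9% occur in transcripts annotated to other genes. The counts of lower imprinted genes were 9 to 11 after the scaling alternatives, where 1883 to 2320 of all 13134 genes were lower.

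Of the silencing machinery, Setdb1 fell and its partner Atf7ip, Mbd1 and Zbtb38 rose, and these calls were kept under all alternatives. Atf7ip has 2 intervals in the table. The main one (chr6:136518851-136607377) went from 87.2, 92.5 and 93.5 RPM to 188, 169 and 178 RPM (log2 fold change 0.97, SE 0.06, limma adjusted p 3.41e-07), and the second (chr6:136608859-136610870) rose by 1.42. The same interval was at 185 ± 5.67 RPM with the hairpin alone and 95.8 ± 6.95 RPM with 5-aza alone. Of 12 intervals of Setdb1 partners and the HUSH complex, 5 were called higher and 0 lower, against 29.3% and 7.87% of all genes. The higher ones were both Atf7ip intervals, Mbd1 (0.62), Trim28 (0.17) and Cbx3 (0.22). Cbx3 lost its call in every leave-one-out fit, and Trim28 lost it after centring or GC correction. Under the scaling alternatives 2 members were lower.

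Of 7 H3K9 methyltransferases and related genes, Setdb1 included, 3 were called higher (Suv39h2 at 0.44, Suv39h1 at 0.24, Ehmt2 at 0.19) and 2 lower (Setdb1 and Prdm2, at -0.12). Apart from Setdb1, each of these calls was lost under at least 1 alternative. Suv39h2 lost its call without treated replicate 1 and Prdm2 without any single library. Of 13 DNA methylation genes, 3 were called higher and 1 lower, and after the scaling alternatives 1 to 2 were higher and 4 to 5 lower. Without treated replicate A 4 were lower, and without control replicate B 0 were. The background for both lists as deposited was 29.3% of all genes higher and 7.87% lower. Zbtb38, which binds methylated DNA, went from 89.8, 89.3 and 93.7 RPM to 148, 163 and 169 RPM (0.81, SE 0.06, adjusted p 1.91e-06 by limma). Dnmt1, the maintenance enzyme, was at 0.26 (adjusted p 9.76e-03), and it was not called after centring or GC correction. Dnmt3b was at -0.52 (adjusted p 0.0167), a call lost without control replicate B.

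Cell cycle genes were called higher in 13 of 50 and lower in 0, close to the 29.3% of all genes. The count rested on single libraries. It was 4 without treated replicate 1, 31 without treated replicate A, 6 without control replicate 1, and 8 without treated replicate B or control replicate A. E2f1 (0.42) and Ccnb2 (0.41) were called in each of these fits. Of 33 p53 target genes, 7 were called higher and 1 lower, a share of higher calls below the 29.3% of all genes. Gdf15, a stress-induced cytokine, went from 5.27, 4.27 and 5.53 RPM to 16.4, 23.6 and 26.6 RPM (2.12, SE 0.21, limma adjusted p 1.92e-05), above each single treatment, and the p53 inhibitor Mdm2 rose by 0.42 and the death gene Pmaip1 by 0.49. The cell cycle inhibitor Cdkn1a was at -0.08 (adjusted p 0.345). Of 19 histone genes, 7 were called higher and 1, H1f0, lower (-0.53), near the 29.3% of all genes called higher. The number of higher histone genes was 3 without treated replicate 1. It was also 3 under each scaling alternative, where 1905 to 2062 of all 13134 genes were higher. Of 11 clustered protocadherins, 2 were called higher, fewer than 29.3%, and 0 were after any of the scaling alternatives or without control replicate A or B or treated replicate A or B. Of 20 cholesterol synthesis genes, 3 were called lower and 1 higher, and 8 were lower without treated replicate A. As deposited, 7.87% of all genes were lower. After centring, GC correction and quantile normalisation 9, 8 and 5 of the list were lower, against 2320, 2136 and 1883 of all 13134 genes.

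**Figure D4:**
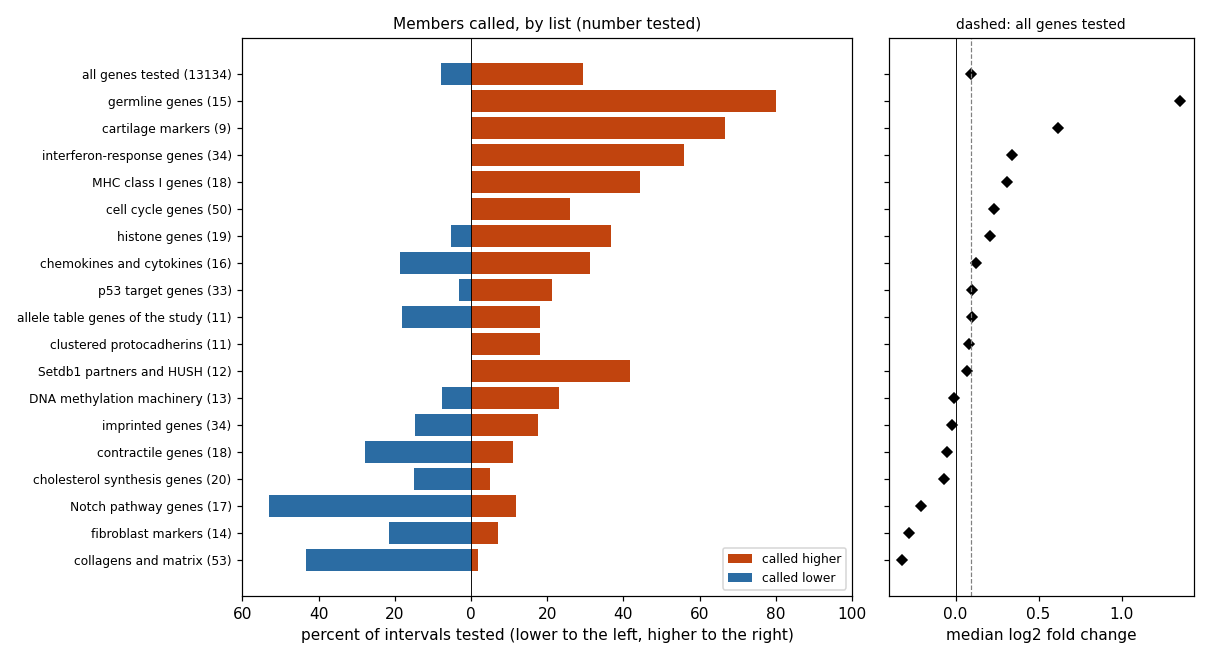
Percent of intervals tested in each list that were called higher (right) or lower (left), with the median log2 fold change beside it, for lists with at least 9 tested intervals and for all 13134 genes (29.3% higher, 7.87% lower). Germline genes stand highest with 12 of 15, and the matrix list holds 23 of 53 lower.

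Markers of cell types were counted in the same way, here and below, against 29.3% of all genes called higher and 7.87% lower. Fewer cells of a type and less RNA per cell cannot be told apart in bulk RNA. Fibroblast markers were called lower in 3 of 14 (Pdgfrb at -0.68, Thy1 at -0.43 with overlapping groups, and Prrx1 at -0.28) and higher in 1, Vim, with a median of -0.28. The lower count was 6 without treated replicate A and 1 without treated replicate B or 1 or control replicate B. Of the endothelial markers, 4 of 10 were tested, with 2 called lower and 0 higher. Without the filter 9 could be fitted, and 3 were called higher and 2 lower. Flt1 went from 96, 104 and 77.4 RPM to 55.3, 46.4 and 45.2 RPM (log2 fold change -0.91, limma adjusted p 1.09e-03) and Emcn fell by 1.64. The endothelial markers Tie1 and Cldn5 had 0 reads, and the list's sum was 85.92 to 111.7 RPM in control and 51.18 to 60.15 RPM in treated libraries. The part of these markers in the lower Notch genes was not tested.

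Of the macrophage markers, 3 of 15 were tested and 1, Csf1r, was called higher (0.31). The list's sum was 11.2 to 12.05 RPM in control and 14.96 to 16.21 RPM in treated libraries, with Ptprc at no more than 16 reads. The part of these cells in the interferon and MHC genes was not tested. Of the cartilage markers, 6 of 9 tested were called higher (29.3% of all genes) and 0 lower, with a median of 0.62. After centring, GC correction and quantile normalisation 4, 4 and 3 were higher, against 1905, 2062 and 2014 of all 13134 genes. Col9a3 went from 1.41, 1.62 and 1.57 RPM to 5.04, 4.36 and 4.6 RPM. Hapln1 rose by 1.18, a call lost after quantile normalisation, and Sox5 by 1.16 on the log2 scale. The sum went from 84.25 to 88.71 RPM in control to 113 to 142.4 RPM in treated libraries. Of the adipocyte markers, 3 of 5 tested were called higher (29.3% of all genes), Plin4 (1.53), Fabp4 (1.46) and Cebpa (0.70). Of the 12 listed, 6 had 0 reads, Adipoq among them. Cebpa lost its call after each scaling alternative. Neural markers were called higher in 2 of 5 and lower in 1, against 29.3% and 7.87% of all genes. Sox2 went from 0.177, 0.194 and 0.17 RPM to 1, 1.79 and 1.36 RPM (2.90, adjusted p 3.48e-06 by limma), and it was at 2.14 ± 0.313 RPM with the hairpin alone. Of the skeletal muscle markers, 3 of 17 were tested and 2, Des and Acta1, were called higher.

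Chromosome X and the autosomes had similar shares of called genes. Of 431 tested, 107 were called higher (24.8%) and 39 lower (9%), against 29.5% and 7.8% of 12701 autosomal genes. The median log2 fold change was 0.084 on chromosome X and 0.095 on the autosomes, and the difference of -0.011 was smaller than its SD of 0.024 over the 3 treated libraries. At least 2-fold, 12 X-linked genes were called higher (2.78%) and 2 lower, with Tex11 and Rhox5 among the former, against 303 (2.39%) and 113 autosomal genes. The difference between these shares was not tested.

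The share of all RPM on chromosome X was 3.365%, 3.392% and 3.358% in the controls and 3.378%, 3.315% and 3.287% with both treatments. The groups overlapped (difference of means -0.045 percentage points, two-sided exact permutation p 0.3, where 0.1 is the smallest that 3 against 3 allows). Without Xist and the 10 most abundant X-linked genes the share was 1.701%, 1.708% and 1.708% in the controls. It was 1.747%, 1.754% and 1.72% with both treatments. Here the groups did not overlap and the difference was upward, 0.034 percentage points (exact permutation p 0.1, the smallest possible). Xist, the RNA that coats the inactive X, was at 217.4, 222.5 and 220.1 RPM in the controls and at 228.5, 229.4 and 210 RPM in the treated libraries (log2 fold change 0.02, SE 0.10, limma adjusted p 0.913). Of the 11 X-linked genes the study tabulated by allele, chosen by it on these cells, 2 were called higher (Magee1 at 0.23, Utp14a at 0.18) and 2 lower (Atrx at -0.17, Col4a5 at -0.24). Magee1 and Utp14a were not called after median centring, quantile normalisation or GC correction, and Atrx was not called without control replicate B or treated replicate B or 1. Total levels do not tell which X a transcript came from.

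**Figure D5:**
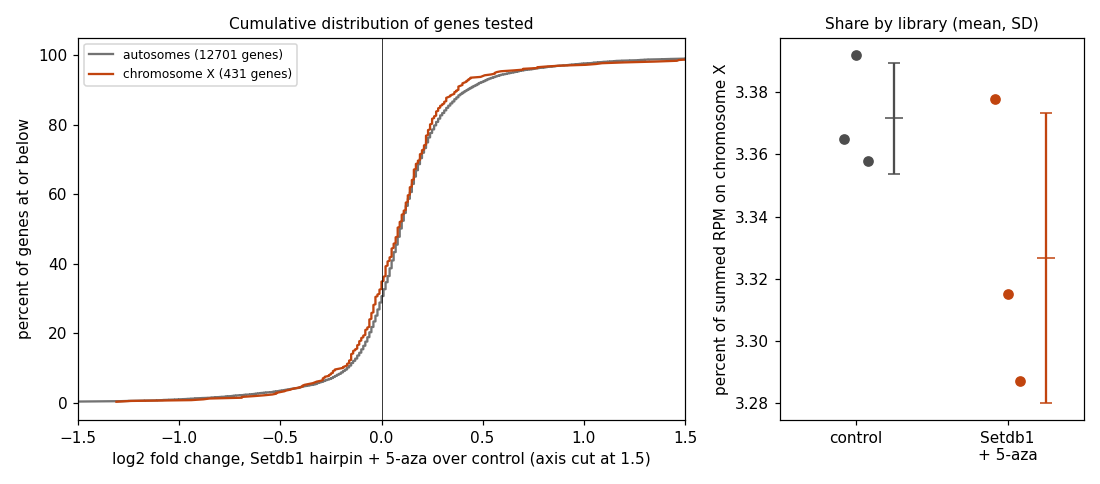
Cumulative distribution of log2 fold changes of 431 X-linked and 12701 autosomal genes (left) and the share of summed RPM on chromosome X by library with mean and SD, n = 3 (right, axis not from 0). The curves nearly coincide, and in the share over all X-linked genes the 2 groups of libraries overlap.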

How the data were processed

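Polyadenylated RNA from 13 fibroblast libraries was sequenced as 100 bp single-end reads, and the labels' processing notes name CASAVA 1.4 and mm10. The authors deposited log2 RPM values per gene interval. The counting tool, its annotation and its use of strand are not given in the sources used here. The deposited values came out as whole reads in all libraries (tolerance 0.02), with 0.9 read entered where a gene had none, and the recovered totals were 41.9 M to 58.8 M for the hairpin libraries and 20.4 M for the library with no named hairpin, which entered no comparison. At least 87.1% of the total lay in genes in the 6 libraries compared.

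Genes that reached 1 RPM in 3 or more hairpin libraries (of 12) were fitted on the deposited log2 scale, with 4 groups of 3, in limma 3.58.1 (R 4.3.3, empirical Bayes with trend), and p-values were adjusted by the Benjamini-Hochberg method over all genes tested, separately in each contrast. Fold changes of genes with at most 3 reads in each control library are given as lower bounds against 3 reads per library. Shares of chromosome X were compared by a two-sided exact permutation test. Annotation was GENCODE M21 (GRCm38), in which 96.4% of the identifiers were found, and sequence shared between genes was counted as 50-base words of its transcripts. Named genes were all members of the lists of silencing genes and of the allele table, the 12 largest rises and falls on the log2 scale and the 5 largest gains and losses in RPM among called genes with groups that did not overlap, and up to 4 called members of each other list with the largest change. Other genes named were chosen after their values were seen. Of the genes the rule selects, those the text does not describe enter its counts alone, and results of 2 are not reported here. Members and gene lists were chosen with earlier results of these data known. The fit was tested on simulated data. Alternatives changed the scaling, pseudocount, filter, libraries and model, including limma voom on the recovered reads. Summaries used Python 3.11.15 (scipy 1.17.1, pandas 2.3.3, numpy 2.4.6), and plots matplotlib 3.10.9. Floors cover counting error only.

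Replicate letters name samples in both groups and are not said to mark a shared culture, so libraries were not paired.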

Additional observations from a re-analysis of the deposited data

Results flagged for a closer look

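A library whose name begins with PGK was labelled as treated with 5-aza but with no named hairpin. Its group is not given, so its values are reported without a test. The study used a PGK sample to find variants of the PGK strain, and whether this library is that sample is not stated. Its cells may therefore differ from the controls in strain as well as in drug and hairpin. In this library, 9 of the 12 largest rises lay above all 3 control libraries. The share of all genes above the controls in this library was not computed, so the count has no background. Gm10800 was at 96.64 RPM (1970 reads), AC242409.1 at 30.17 RPM, Krt8 at 3.189 RPM, Dazl at 2.943 RPM (60 reads) and Tex19.1 at 1.57 RPM (32 reads). Angptl7 was at 4.317 RPM, Gm11019 at 3.483 RPM, Got1l1 at 0.5396 RPM and 2610507I01Rik at 0.1962 RPM, the last from 4 reads. The others of these rises were not above the controls, with 0 reads for Tex11 and Prl2c2 and 0.4415 RPM for Prl2c3. Of the 12 largest falls, Fndc1 (30.51 RPM) and Rab6b (5.592 RPM) also lay above the highest control (27.34 and 5.264 RPM), and the rest did not. This library held 17.4 M reads in genes, and 1 read was worth 0.0491 RPM.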

How the results depend on the processing

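Of 116 genes selected by the naming rule and called, 81 kept call and direction under all alternatives that gave a value, 34 lost the call in at least 1 and 2 reversed. Leaving out 1 library at a time gave 3349 to 5161 called genes, 2635 to 3996 higher, 698 to 1165 lower, 398 to 510 changed at least 2-fold and 77.4 to 79.9% higher. Higher and lower genes numbered 1905 and 2320 after median centring (45.1% higher), 2014 and 1883 after quantile normalisation (51.7%), and 2062 and 2136 after GC correction (49.1%). Genes changed at least 2-fold numbered 210 on log2(RPM + 1), 1068 without a filter, with 19319 genes tested, and 191 at 5 RPM or more. The cause was not tested. The chromosome X share difference was -0.071 to -0.025 with 1 library left out, and 0.034 without Xist and the 10 most abundant X-linked genes.

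With the replicate letter as a block, in the 8 libraries with a letter, 4112 genes were called, against 3451 in the same libraries without the block, where 688 were lower. Residuals of same-lettered libraries correlated at 0.1861 (A) and -0.3661 (B), which does not settle whether the letters mark shared cultures. With the culture as a random block (estimated correlation 0.315) 4865 genes were called. The 8-library fits, chosen after seeing the data where unblocked, gave Ehmt1 -0.01, Hnrnpu -0.02, Cbx5 -0.04, Lamp2 0.01, Rps4x 0.03 and Prps1 -0.03, with and without the block.

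Thbs1 (-0.58 as deposited) and Acta2 (-0.25) lost their direction after quantile normalisation, and the other changes of sign were those of differences of at most 0.14. With 1 library left out, Thbs1 ranged from -0.61 to -0.56 and Acta2 from -0.29 to -0.21. Quantile normalisation gave Thbs1 0.00, Acta2 0.14, Ehmt1 -0.06, Cbx1 -0.01, Cbx5 -0.01, Smchd1 -0.02 and Rpl36a -0.02. Median centring gave Ehmt1 -0.09, Hnrnpu -0.07, Cbx1 -0.05, Mphosph8 -0.02, Cbx5 -0.10, Smchd1 -0.07, Uhrf2 -0.01, Flna -0.02, Prps1 -0.00 and Xist -0.09. GC correction gave Ehmt1 -0.08, Hnrnpu -0.04, Cbx1 -0.02, Cbx5 -0.06, Smchd1 -0.04, Flna -0.03 and Xist -0.06. With 1 library left out, Cbx5 ranged from -0.02 to 0.04, Ehmt1 from -0.01 to 0.02, Hells from -0.09 to 0.09, Hnrnpu from -0.00 to 0.08, Lamp2 from -0.07 to 0.01, Rps4x from -0.03 to 0.02, Tet2 from -0.10 to 0.03 and Xist from -0.01 to 0.06. None of these but Thbs1 and Acta2 was called as deposited.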
